A study of Trichoderma atroviride with 42 samples.

Results

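The genes described here are 42 genes of the filamentous fungus Trichoderma atroviride whose product text names a fungal transcription factor domain. They were taken from the authors' deposited table for mechanical injury at 30 min, which carries the product texts. Of 43 ids with exactly that text 1 was left out by the selection rule, so the set holds 42 of the 11786 genes counted. RNA was sequenced from wild-type mycelium grown for 36 h in the dark at 27 °C on cellophane over potato dextrose agar. In the group names MI is mechanical injury with a scalpel, Dm is grazing for 10 min by larvae of the fruit fly Drosophila melanogaster, and Of is grazing, also for 10 min, by a small soil arthropod, the collembola Orthonychiurus folsomi. Injured and grazed mycelium was collected at 4 times, from 30 min (MI_30min, Dm_30min, Of_30min) to 8 h (MI_8h, Dm_8h, Of_8h), with 90 min and 4 h between them. The controls CT0 and CT8 were untreated plates opened for 2 min. CT0 carries a time 0 label, while the design text and the treatment protocol place it at 30 min. No untreated library stands at 90 min or 4 h. The 90 min groups were set against CT0 and the 4 h groups against CT8. In these comparisons treatment and time cannot be told apart. The 42 libraries fall into 14 groups of 3, and per the design text each library is an independent biological replicate pooled from 3 technical ones. The number of larvae or collembola per plate is not given in the sources used here. The libraries hold total RNA of whole mycelium, so fewer hyphal cells of a kind and less RNA per cell cannot be told apart.

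The domain in question is found almost only in fungi. It forms the middle part of many regulators that bind DNA through a cluster of zinc ions held by cysteines at the other end of the protein. Yeast regulators of sugar use and regulators of plant cell wall degradation in moulds belong to this family, which is one of the largest families of transcription factors in filamentous fungi. Members commonly switch on genes of carbon and nitrogen use, of drug resistance or of secondary metabolism, and some sit beside the genes they control. The files give none of the 42 genes a symbol, so each is called by its id, and no role beyond the domain can be named for any one of them.

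Total counts ran from 1152096 in CT0 replicate 2 to 5398093 in MI_4h replicate 2. The 4 shallowest libraries held between 1152096 and 1607248 counts and the next held 2260001. The 42 genes together took between 0.167% and 0.367% of a library's counts. All 42 passed the filter on low counts, which 9193 genes passed. Levels are CPM, a gene's share of its library's counts in parts per 1e6, scaled by TMM factors, and they are compared only within a gene, since the files give no gene lengths. A gene was called at an adjusted p under 0.05 in edgeR's quasi-likelihood test with Benjamini-Hochberg adjustment over all 9193 genes, and every adjusted p below is from it. Errors of log2 fold changes are standard errors, and those of CPM are SDs over 3 libraries. A call of one of the 42 genes given below without a named library held when each library of its groups was left out in turn. The sources used here do not give the counting's strand setting or build, so reads of overlapping genes and of near-identical family members could have been shared between them.

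The injury contrast at 30 min chose the genes, so its values describe the set and nothing is tested on it. All 42 passed the authors' cut there, while only part of all genes did. In the other comparisons a share called above that of all genes may follow from this choice. It is therefore not read as a trait of the domain. The authors' deposited table lists 23 of the 42 as higher and 19 as lower after injury; by the fit used here 46.3% of all genes tested pass the threshold in that contrast. The log2 fold changes of the 42 in the authors' deposited table run from 5.34 for Tatro_008005-T1 to -2.25 for Tatro_004721-T1. Next after Tatro_008005-T1 in the authors' deposited table came Tatro_008187-T1 at 4.02, Tatro_010015-T1 at 2.55, Tatro_006115-T1 at 2.53 and Tatro_001744-T1 at 1.74. The 5 lowest in the authors' deposited table were Tatro_004721-T1, Tatro_006936-T1 at -1.51, Tatro_004118-T1 at -1.41, Tatro_002191-T1 at -1.40 and Tatro_001297-T1 at -1.22. The member nearest the cut of that table was Tatro_004919-T1, with a log2 fold change of -0.30 and a false discovery rate of 0.00317 in the authors' deposited table. Genes past the cut carry no product text here, so none can be set beside it.

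Tatro_008005-T1 had 510, 477 and 542 CPM at MI_30min, against 9.32, 5.76 and 14.4 CPM in CT0. Tatro_008187-T1 had 64.9, 64.4 and 50.8 CPM at MI_30min, against 3.11, 9.60 and 4.73 CPM in CT0. Tatro_006115-T1 had 87.0, 65.4 and 78.4 CPM at MI_30min, against 14.9, 10.6 and 12.9 CPM in CT0. In all 3 genes every injured library lay above every CT0 library. Tatro_006936-T1 had 187, 194 and 238 CPM at MI_30min, against 699, 654 and 621 CPM in CT0. Tatro_004118-T1 had 63.6, 81.7 and 94.1 CPM at MI_30min, against 184, 244 and 120 CPM in CT0. Both of these were lower in every injured library. Over all 14 groups, 20 of the 42 genes had their highest mean at MI_30min and 12 their lowest. MI_30min chose the genes, so these counts only describe the selection.

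**Figure D1:**
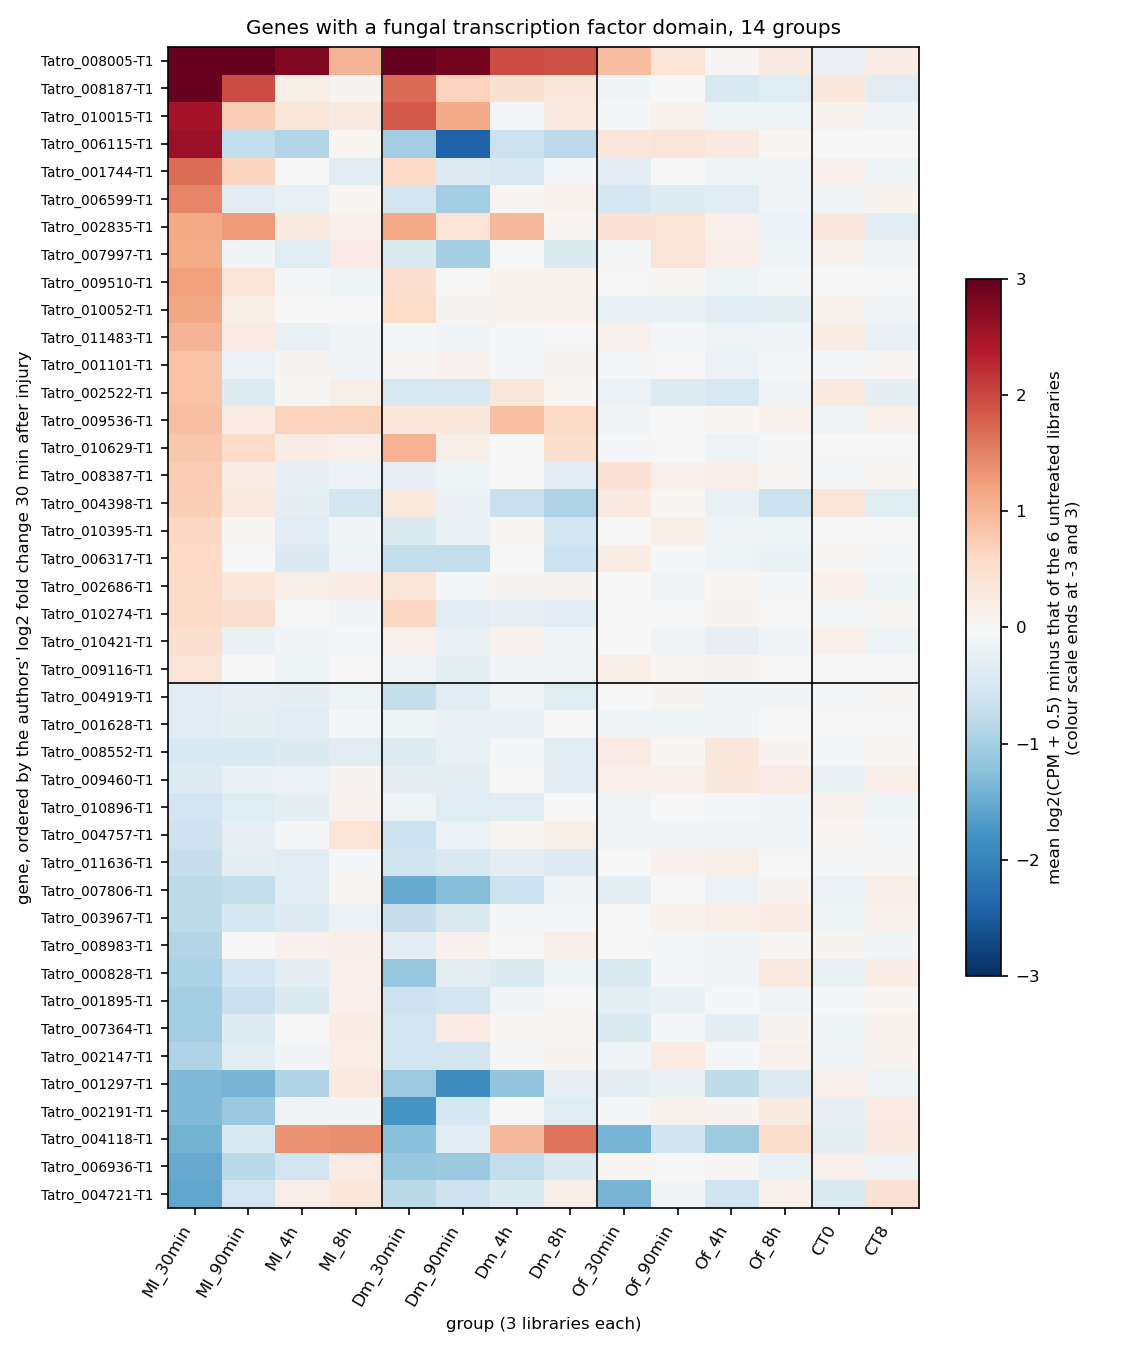
Heat map of the 42 genes (rows, in the order of the authors' log2 fold change 30 min after injury) in 14 groups (columns). Colour is the mean log2(CPM + 0.5) of a group's 3 libraries minus that of the 6 untreated libraries. The column MI_30min chose the rows. The Dm_30min column is mostly blue or pale among the genes listed as lower, and the Of columns are pale in most rows, with 39 of 42 genes called in no Of comparison with a control.

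At 90 min after injury 20 of the 42 genes were called against CT0 (47.6%), beside 39.5% of all genes tested. The 9 genes that rose (19.6% of all genes rose) were all among the 23 that the authors list as higher at 30 min, and 9 of the 11 that fell (20% of all genes fell) were among the 19 listed as lower. CT0 libraries may also stand in the authors' 30 min comparison, so these counts are not independent of the selection. The comparisons of injury, larvae and collembola with a control also share the CT0 or CT8 libraries with each other. At MI_90min Tatro_008005-T1 had 250, 153 and 171 CPM, a log2 fold change of 4.12 ± 0.30 over CT0 (adjusted p = 2.23e-13). Tatro_008187-T1 had 21.9, 13.7 and 18.1 CPM at MI_90min (log2 fold change 1.97 ± 0.31, adjusted p = 3.78e-06). Each of these libraries was still above every CT0 library.

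Among the falls at 90 min, Tatro_001297-T1 had 5.86, 6.47 and 8.05 CPM at MI_90min, against 19.9, 25.9 and 17.6 CPM in CT0, with no overlap (log2 fold change -1.56 ± 0.24, adjusted p = 2.71e-06). Tatro_006936-T1 averaged 339 ± 39.2 CPM at MI_90min and 658 ± 39.4 CPM in CT0 (log2 fold change -0.96 ± 0.14, adjusted p = 1.3e-06). Tatro_002191-T1 fell to 5.4 ± 1.56 CPM, against 9.99 ± 1.27 CPM in CT0 (adjusted p = 0.00731). The other direction appeared in a pair of genes that the authors list as higher at 30 min. Tatro_002522-T1 had 39.5, 33.8 and 36.8 CPM at MI_90min, below the 52.6, 63.4 and 58.7 CPM of CT0 (log2 fold change -0.63 ± 0.14, adjusted p = 0.000522). Its mean in untreated CT8, 39.2 ± 1.41 CPM, was also below CT0, so an effect of injury and a high CT0 level cannot be told apart. Tatro_006115-T1 had 8.60, 6.11 and 7.56 CPM at MI_90min and was called lower with an adjusted p of 0.0493. That call was lost without CT0 replicates 1 or 3 or without any 1 of the MI_90min libraries (highest adjusted p = 0.188, without CT0 replicate 1).

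At 4 h after injury 15 genes were called against CT8 (35.7%, beside 24.4% of all genes), 4 higher (11.9% of all genes) and 11 lower (12.5% of all genes). Of the 11 lower genes 10 were listed as lower at 30 min. Without MI_4h replicate 1 the count was 8. Tatro_008005-T1 was still raised, with 96.6, 85.0 and 55.6 CPM at MI_4h, against 13.8, 10.6 and 14 CPM in CT8 (log2 fold change 2.61 ± 0.28, adjusted p = 9.94e-09). Tatro_004118-T1, low at 30 min, was now high, with 532, 432 and 680 CPM at MI_4h, against 269, 226 and 269 CPM in CT8 (log2 fold change 1.10 ± 0.27, adjusted p = 0.00251). At 8 h after injury 8 genes were called against CT8 (19%, beside 22.5% of all genes), 6 higher (10.9% of all genes) and 2 lower (11.6%). Without CT8 replicate 1 the count was 2, without MI_8h replicate 2 it was 3, and without MI_8h replicate 3 it was 4. Tatro_004118-T1 stayed high at 555, 553 and 563 CPM (log2 fold change 1.13 ± 0.27, adjusted p = 0.00219). Tatro_009536-T1 averaged 156 ± 4.8 CPM at MI_8h and 108 ± 6.19 CPM in CT8 (log2 fold change 0.53 ± 0.13, adjusted p = 0.00302). Tatro_008005-T1 had 21.7, 19.3 and 27.1 CPM at MI_8h, all above CT8, and missed the threshold (log2 fold change 0.81 ± 0.31, adjusted p = 0.0516).

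**Figure D2:**
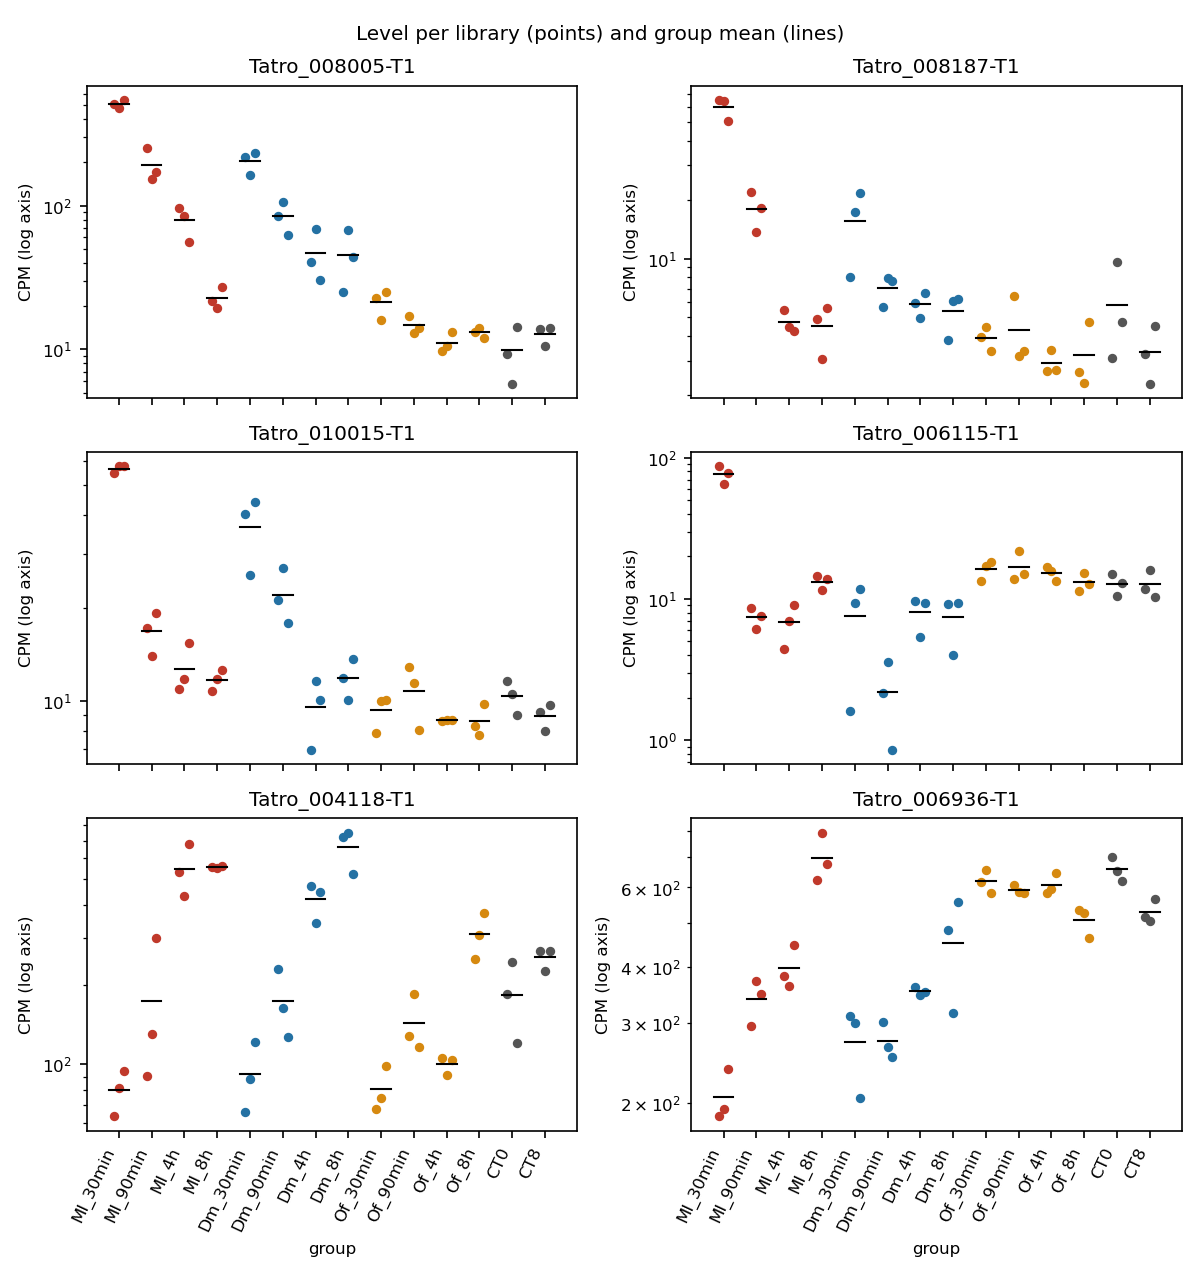
CPM on a log axis in each of the 42 libraries for 6 genes, points for libraries and lines for group means. Tatro_008005-T1 falls through the 4 injury times, with 510 ± 32.4 CPM at MI_30min and 22.7 ± 3.96 CPM at MI_8h, and Tatro_004118-T1 climbs to 557 ± 5.18 CPM at MI_8h and 666 ± 123 CPM at Dm_8h (SD, n = 3).

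Early after larval grazing more of the 42 genes were called lower than higher against CT0. At 30 min 26 of the 42 were called against CT0 (61.9%, beside 39.5% of all genes tested), 9 higher (19.1% of all genes) and 17 lower (20.4%). The median log2 fold change was -0.37 over the 42 genes and -0.02 over all genes. Of the 17 lower genes 14 were listed as lower 30 min after injury. CT0 libraries may also stand in that selecting comparison, so these counts and this median are not independent of the selection. Tatro_008005-T1 had 218, 163 and 230 CPM at Dm_30min (log2 fold change 4.21 ± 0.29, adjusted p = 7.08e-14). Tatro_010015-T1 had 40.2, 25.7 and 44.1 CPM at Dm_30min, against 11.6, 10.6 and 9.03 CPM in CT0 (log2 fold change 1.82 ± 0.19, adjusted p = 1.35e-09). Tatro_010629-T1 averaged 86.7 ± 11.8 CPM at Dm_30min and 42.3 ± 6.78 CPM in CT0 (adjusted p = 1.03e-05). The grazed and untreated libraries did not overlap in any of these.

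The largest falls at Dm_30min among non-overlapping genes were those of Tatro_002191-T1, Tatro_007806-T1 and Tatro_006936-T1. Tatro_002191-T1 had 3.82, 3.12 and 2.63 CPM at Dm_30min, against 10.2, 8.64 and 11.2 CPM in CT0 (log2 fold change -1.67 ± 0.29, adjusted p = 1.57e-05). Tatro_007806-T1 averaged 7.09 ± 1.24 CPM at Dm_30min and 19.2 ± 6.73 CPM in CT0 (log2 fold change -1.29 ± 0.21, adjusted p = 6.71e-06). Tatro_006936-T1 averaged 272 ± 58.2 CPM at Dm_30min and 658 ± 39.4 CPM in CT0 (log2 fold change -1.27 ± 0.14, adjusted p = 6e-09). A further 3 genes fell after grazing although the authors list them as higher at 30 min after injury. They were Tatro_002522-T1 (log2 fold change -0.75 ± 0.14, adjusted p = 7.46e-05), Tatro_006317-T1 (-0.75 ± 0.16, adjusted p = 0.000187) and Tatro_006115-T1 (-0.88 ± 0.33, adjusted p = 0.034). The last call was lost without CT0 replicates 1 or 3 or without Dm_30min replicate 1, whose 1.61 CPM stood below the 9.36 and 11.8 CPM of the other Dm_30min libraries (highest adjusted p = 0.383, without Dm_30min replicate 1). For Tatro_002522-T1 the mean in untreated CT8, 39.2 ± 1.41 CPM, was also below CT0. For that gene an effect of grazing and a high CT0 level therefore cannot be told apart.

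At 90 min after grazing 14 genes were called against CT0 (33.3%, beside 33.9% of all genes), 4 higher (16.9% of all genes) and 10 lower (17%). Tatro_006115-T1 reached its lowest level of the series there, with 2.17, 3.58 and 0.851 CPM at Dm_90min, against 14.9, 10.6 and 12.9 CPM in CT0 (log2 fold change -2.37 ± 0.43, adjusted p = 4.35e-05). Every grazed library was lower than every untreated one. The 0.851 CPM is that of Dm_90min replicate 3, which held 1443447 counts, so this value rests on very few reads. Tatro_001297-T1 averaged 5.12 ± 2.35 CPM at Dm_90min and 21.1 ± 4.29 CPM in CT0 (log2 fold change -1.77 ± 0.26, adjusted p = 1.44e-06). Among the rises Tatro_008005-T1 had 84.1, 106 and 62.1 CPM (log2 fold change 2.97 ± 0.30, adjusted p = 2.05e-09) and Tatro_010015-T1 averaged 22.0 ± 4.54 CPM, against 10.4 ± 1.29 CPM in CT0 (adjusted p = 4.18e-05). Dm_90min replicate 3 was among the shallowest libraries and stood apart in some genes: Tatro_001744-T1 had 38, 39.7 and 10.2 CPM in replicates 1 to 3 of Dm_90min, and Tatro_006599-T1 had 13.9, 12 and 2.55 CPM. Without that replicate 12 genes were called against CT0.

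At 4 h after grazing 8 genes were called against CT8 (19%, beside 20.5% of all genes), 4 higher (10.8% of all genes) and 4 lower (9.78%). At 8 h 10 were called (23.8%, beside 24.9% of all genes), 3 higher (11.9%) and 7 lower (13%). Tatro_008005-T1 stayed above CT8 at both times, with 40.2, 69.2 and 30.1 CPM at Dm_4h (adjusted p = 2.52e-05) and 25.2, 67.6 and 44.0 CPM at Dm_8h (adjusted p = 2.68e-05), against 13.8, 10.6 and 14 CPM in CT8. Tatro_009536-T1 averaged 180 ± 0.941 CPM at Dm_4h and 108 ± 6.19 CPM in CT8 (log2 fold change 0.74 ± 0.13, adjusted p = 7.99e-05). Tatro_004118-T1 had 721, 751 and 524 CPM at Dm_8h (log2 fold change 1.38 ± 0.27, adjusted p = 0.000194). Its rise at Dm_4h, to 421 ± 68.8 CPM against 255 ± 25.0 CPM in CT8, missed the threshold (adjusted p = 0.0511). The count at 8 h was 4 without Dm_8h replicate 1, and 6 without Dm_8h replicate 2 or without CT8 replicate 1.

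Larval grazing was also set directly against injury. At 30 min, where the injury libraries also chose the genes and no test applies (31.3% of all genes pass the threshold), 21 of the 23 genes listed as higher had a lower mean log2 level at Dm_30min than at MI_30min, while 49% of all genes tested did. Their median log2 difference was -0.81, beside 0.01 over all genes. Of the 19 genes listed as lower, 14 were higher at Dm_30min than at MI_30min. The effect of having selected the genes in these injury libraries and a difference between the treatments cannot be told apart here. Tatro_006115-T1 had the widest gap of the 42 genes, with 1.61, 9.36 and 11.8 CPM at Dm_30min and 87.0, 65.4 and 78.4 CPM at MI_30min.

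The 90 min libraries took no part in the selection. There 8 of the 42 genes were called between larvae and injury (19%, beside 11.7% of all genes), 1 higher (6.73% of all genes) and 7 lower (4.99%) at Dm_90min, and all 7 belong to the 23 listed as higher at 30 min. The genes were still chosen as changed after the same injury at 30 min. The share above that of all genes and the direction of these 7 may follow from that choice. Tatro_008005-T1 had 84.1, 106 and 62.1 CPM at Dm_90min and 250, 153 and 171 CPM at MI_90min, with no overlap (log2 fold change -1.15 ± 0.23, adjusted p = 0.00108). Tatro_008187-T1 averaged 7.08 ± 1.25 CPM at Dm_90min and 17.9 ± 4.12 CPM at MI_90min (log2 fold change -1.40 ± 0.29, adjusted p = 0.00147). Tatro_006115-T1 averaged 2.20 ± 1.37 CPM at Dm_90min and 7.43 ± 1.25 CPM at MI_90min (log2 fold change -1.55 ± 0.46, adjusted p = 0.0212). This last call was lost without MI_90min replicate 1 and without Dm_90min replicates 1 or 3 (highest adjusted p = 0.115, without MI_90min replicate 1). The gene that was higher after larvae was Tatro_007364-T1, listed as lower at 30 min, with 175, 129 and 217 CPM at Dm_90min and 95.2, 111 and 125 CPM at MI_90min (log2 fold change 0.63 ± 0.13, adjusted p = 0.00141). Without MI_90min replicate 1, which had the highest Tatro_008005-T1 level of its group, 4 of the 42 were called.

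Later fewer of these genes were called. At 4 h 2 were called between larvae and injury (4.76%, beside 6.11% of all genes), 1 higher (3.89% of all genes) and 1 lower (2.22%). They were Tatro_003967-T1 (log2 fold change 0.34 ± 0.10, adjusted p = 0.0443) and Tatro_008005-T1 (-0.80 ± 0.25, adjusted p = 0.0425), and both were lost without MI_4h replicate 1 or 2 or Dm_4h replicate 1 or 3 (highest adjusted p = 0.189 and 0.297). The first was also lost without MI_4h replicate 3 or Dm_4h replicate 2. In those 4 fits edgeR called 0 of the 42, with 5 to 10 at an unadjusted p under 0.05. At 8 h none of the 42 was called higher (0.914% of all genes were) and 1 was called lower (0.598% of all genes). That 1 of 42 (2.38%, beside 1.51% of all genes) was Tatro_006936-T1, with 482, 317 and 557 CPM at Dm_8h and 623, 794 and 676 CPM at MI_8h (log2 fold change -0.62 ± 0.14, adjusted p = 0.016). It was lost without MI_8h replicate 2 and without Dm_8h replicate 2 (highest adjusted p = 0.156, without MI_8h replicate 2). DESeq2 called 2 genes at 4 h and 2 at 8 h, and edgeR called 2 at 8 h without Dm_8h replicate 1 or 3 and 0 without MI_8h replicate 2 (7 at an unadjusted p under 0.05) or Dm_8h replicate 2 (3).

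Whether the gap between larvae and injury itself differed between 90 min and 8 h was tested as an interaction. It did for 4 of the 42 genes (9.52%, beside 4.74% of all genes), 3 upwards (1.88% of all genes) and 1 downwards (2.86%). The gap of Tatro_008005-T1 was 2.1 ± 0.36 higher on the log2 scale at 8 h than at 90 min (adjusted p = 0.00072). That of Tatro_007364-T1 was -0.79 ± 0.18 (adjusted p = 0.00857). Those of Tatro_008187-T1 (1.68 ± 0.47, adjusted p = 0.0319) and Tatro_001744-T1 (0.93 ± 0.25, adjusted p = 0.0271) were lost when some libraries were left out. For Tatro_008187-T1 these were MI_90min replicate 1, MI_8h replicate 2, Dm_90min replicate 1 and Dm_8h replicates 2 or 3 (highest adjusted p = 0.146), and for Tatro_001744-T1 MI_90min replicate 1, MI_8h replicate 2 and Dm_8h replicate 2 (highest adjusted p = 0.079). The count was 2 without MI_90min replicate 1, without MI_8h replicate 2 and without Dm_8h replicate 2.

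**Figure D3:**
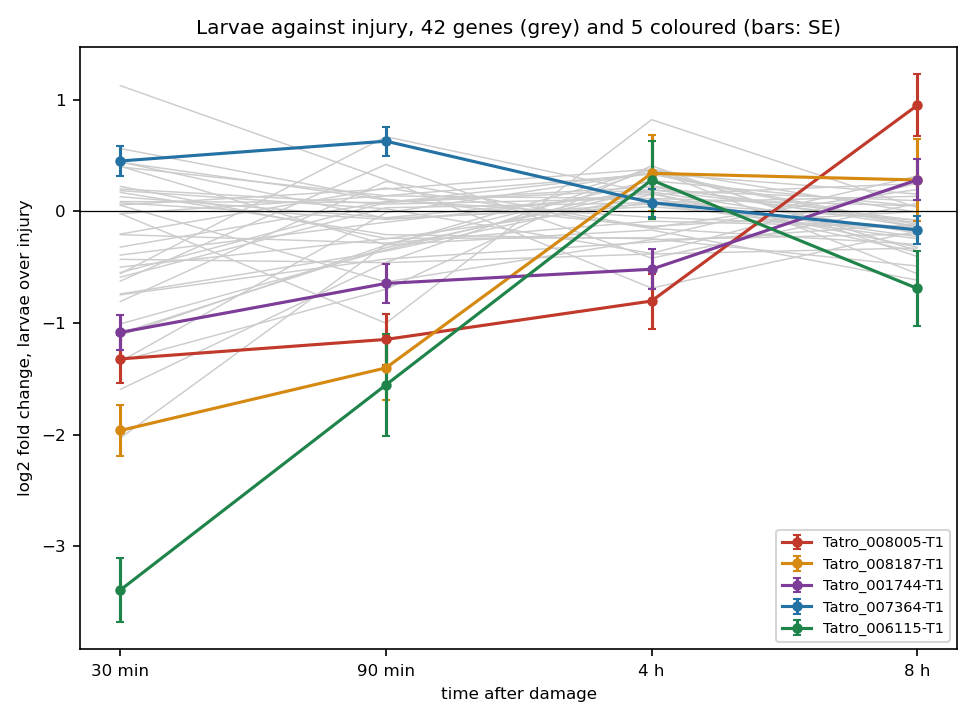
Log2 fold change of larvae over injury at the 4 times for the 42 genes (grey lines) and 5 of them in colour, bars for standard errors. The values of 30 min share the injury libraries that chose the genes. Tatro_008005-T1 lies at -1.15 ± 0.23 at 90 min and at 0.95 ± 0.28 at 8 h, where it was not called by edgeR (adjusted p = 0.0731).

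After collembola grazing 39 of the 42 genes were called in none of the 4 comparisons of O. folsomi with its control (92.9%, beside 87.8% of all genes tested). At 30 min 3 genes were called against CT0 (7.14%, beside 9.9% of all genes), 1 higher (6.2% of all genes) and 2 lower (3.7%). At 90 min 1 was called, lower (2.38%, beside 5.47% of all genes, 3.72% higher and 1.75% lower), and at 4 h 1, lower (2.38%, beside 0.207% of all genes, 0.0218% higher and 0.185% lower). At 8 h edgeR called 0 of the 42 (beside 0% of all genes), with 0 of the 42 and 118 of all genes at an unadjusted p under 0.05, and DESeq2 also called 0. Tatro_008005-T1, the gene of the 42 with the highest log2 fold change at MI_90min and Dm_30min, had 22.9, 15.9 and 25.3 CPM at Of_30min, all above the 9.32, 5.76 and 14.4 CPM of CT0, and missed the threshold (log2 fold change 0.94 ± 0.36, adjusted p = 0.0955).

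Tatro_004118-T1 was low after collembola at both 30 min and 4 h. It had 67.8, 74.7 and 99.0 CPM at Of_30min, against 184, 244 and 120 CPM in CT0 (log2 fold change -1.12 ± 0.30, adjusted p = 0.0141). It had 106, 91.4 and 103 CPM at Of_4h, against 269, 226 and 269 CPM in CT8 (log2 fold change -1.35 ± 0.28, adjusted p = 0.0256). The groups did not overlap at either time. The first call was lost without CT0 replicate 2 and without Of_30min replicates 1 or 2 (highest adjusted p = 0.0721), as well as without the 4 shallowest libraries (adjusted p = 0.166), and the second without CT8 replicates 1 or 3 or without any 1 of the Of_4h libraries (highest adjusted p = 0.217). In those 5 fits edgeR called 0 of the 42 at Of_4h, with 4 to 6 at an unadjusted p under 0.05. Tatro_002522-T1 was lower at Of_90min, with 34.1, 36.4 and 38.9 CPM against 52.6, 63.4 and 58.7 CPM in CT0 (log2 fold change -0.65 ± 0.15, adjusted p = 0.00607), a call that was lost against the mean of both controls (adjusted p = 0.261). The remaining calls at Of_30min were Tatro_008387-T1 (0.51 ± 0.15, adjusted p = 0.0191) and Tatro_002522-T1 (-0.46 ± 0.15, adjusted p = 0.0465). The first was lost without CT0 replicate 3 or Of_30min replicates 2 or 3 (highest adjusted p = 0.216) and with library totals (adjusted p = 0.121). The second was lost without CT0 replicates 2 or 3 or Of_30min replicates 2 or 3 (highest adjusted p = 0.194). This second call was also lost with the replicate block, against the mean of both controls and without the 4 shallowest libraries (highest adjusted p = 0.479). The count at Of_30min was 0 by edgeR without Of_30min replicate 2 (6 at an unadjusted p under 0.05), and 1 without CT0 replicates 2 or 3 or Of_30min replicate 3.

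Larvae against collembola compares a pair of animals that both graze, in libraries that had no part in the selection. The 42 genes were still chosen as changed after injury, so shares above those of all genes may follow from that choice. At 30 min 26 of the 42 genes were called (61.9%, beside 41.4% of all genes), 11 higher (20.3% of all genes) and 15 lower (21.1%) after larvae. At 90 min 15 were called (35.7%, beside 34.4%), 3 higher (17.3% of all genes) and 12 lower (17.1%). At 4 h 12 were called (28.6%, beside 26.2%), 7 higher (13.4% of all genes) and 5 lower (12.8%). At 8 h 8 were called (19%, beside 22%), 4 higher (10.7% of all genes) and 4 lower (11.3%). All 11 genes higher at 30 min were among the 23 listed as higher after injury, and 11 of the 15 lower genes were among the 19 listed as lower. The other 4 of the lower genes were listed as higher after injury. Tatro_008005-T1 had 218, 163 and 230 CPM at Dm_30min and 22.9, 15.9 and 25.3 CPM at Of_30min (log2 fold change 3.26 ± 0.28, adjusted p = 9.08e-12). Tatro_008187-T1 averaged 15.6 ± 6.90 CPM at Dm_30min and 3.92 ± 0.534 CPM at Of_30min (log2 fold change 1.97 ± 0.35, adjusted p = 2.15e-05). Tatro_010015-T1 averaged 36.7 ± 9.73 CPM at Dm_30min and 9.32 ± 1.25 CPM at Of_30min (log2 fold change 1.93 ± 0.20, adjusted p = 1.21e-09). In each of the 3 genes the libraries of the treatments did not overlap.

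The gene of the 42 lowest after larvae relative to collembola at 90 min was Tatro_006115-T1, with 2.17, 3.58 and 0.851 CPM at Dm_90min and 13.8, 21.9 and 15.1 CPM at Of_90min (log2 fold change -2.73 ± 0.42, adjusted p = 3.96e-06). Its 0.851 CPM, in the shallow Dm_90min replicate 3, rests on very few reads. Tatro_001297-T1 (-1.46 ± 0.27, adjusted p = 5.17e-05) and Tatro_007806-T1 (-1.16 ± 0.21, adjusted p = 4.2e-05) were also lower at Dm_90min. At 4 h Tatro_004118-T1 had 474, 343 and 446 CPM at Dm_4h and 106, 91.4 and 103 CPM at Of_4h, the largest rise among the 42 genes in that comparison (log2 fold change 2.07 ± 0.28, adjusted p = 8.97e-07). Tatro_006936-T1 was lower, at 353 ± 7.16 CPM at Dm_4h and 608 ± 33.8 CPM at Of_4h (adjusted p = 5.68e-05). At 8 h Tatro_008005-T1 (1.72 ± 0.31, adjusted p = 6.32e-05) and Tatro_004118-T1 (1.10 ± 0.27, adjusted p = 0.00262) were still higher after larvae. The count of 90 min was 10 without Of_90min replicate 2. That of 4 h was 6 or 7 without Dm_4h replicates 1 or 3 or any 1 of the Of_4h libraries, and that of 8 h was 4 or 5 without Dm_8h replicate 1 or Of_8h replicates 1 or 2.

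**Figure D4:**
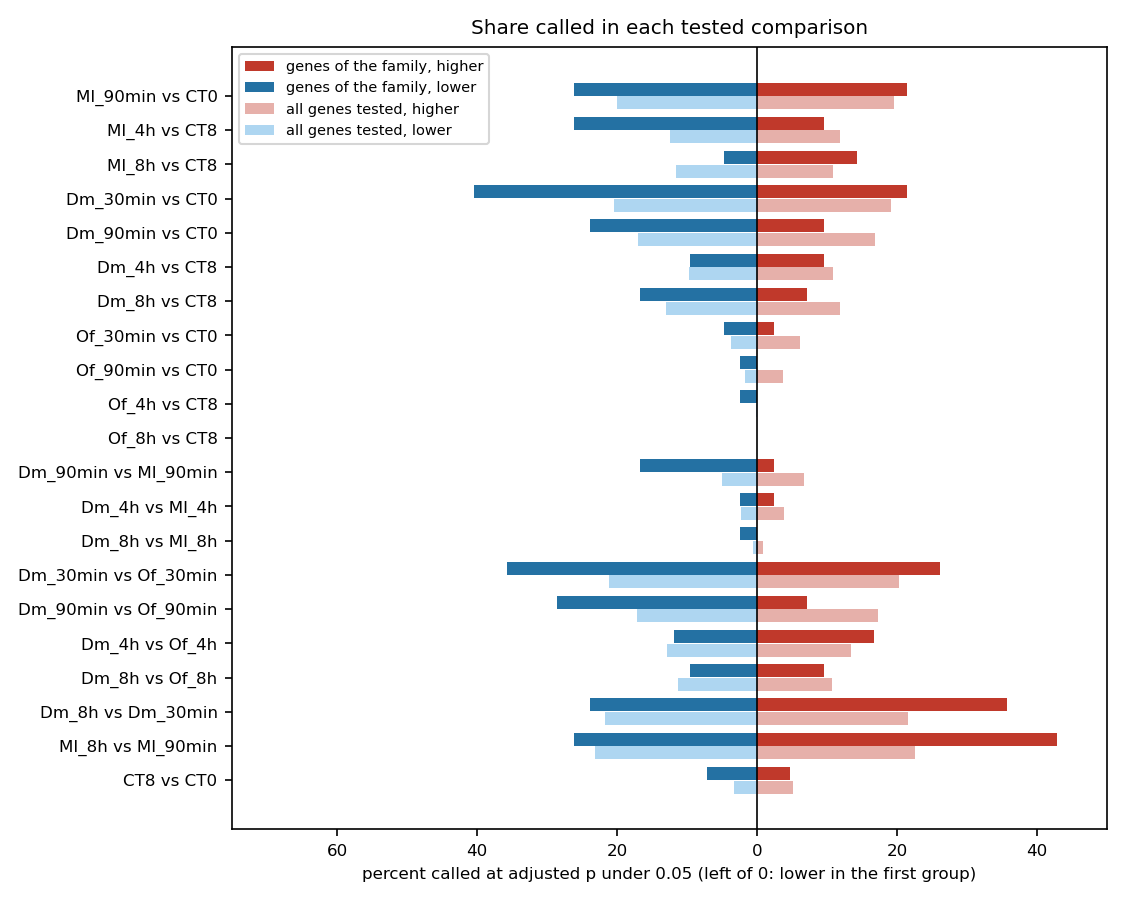
Percent of the 42 genes (dark bars) and of all 9193 genes tested (light bars) called in 21 comparisons, higher in the group named first to the right of 0 and lower to the left. The dark bars are longest to the left at Dm_30min vs CT0, where 17 of 42 genes fell, and to the right at MI_8h vs MI_90min, where 18 of 42 rose.

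The courses within each treatment use no untreated library. The choice of genes that changed after injury also bears on the shares called here. The 19 and the 23 were split by the direction of that same change. Their later directions and medians may therefore follow from the split. From 90 min to 8 h after injury 29 of the 42 genes were called (69%, beside 45.7% of all genes), 18 higher (22.6% of all genes) and 11 lower (23.1%) at MI_8h. Of the 19 genes listed as lower at 30 min, 15 were higher at MI_8h and the other 4 did not pass the test. Of the 23 listed as higher, 11 were lower, 3 were higher and 9 did not pass. The median log2 fold change was 0.62 for the 19, -0.26 for the 23 and 0.00 over all genes tested. Tatro_008005-T1 had 21.7, 19.3 and 27.1 CPM at MI_8h and 250, 153 and 171 CPM at MI_90min (log2 fold change -3.08 ± 0.25, adjusted p = 3.81e-12). Tatro_001297-T1 had 21.7, 22.4 and 25.2 CPM at MI_8h and 5.86, 6.47 and 8.05 CPM at MI_90min (log2 fold change 1.76 ± 0.23, adjusted p = 5.31e-08). Tatro_004118-T1 had 90.3, 130 and 301 CPM at MI_90min, a wide spread, all below MI_8h (log2 fold change 1.68 ± 0.28, adjusted p = 3.99e-06). Tatro_006936-T1 averaged 697 ± 87.5 CPM at MI_8h and 339 ± 39.2 CPM at MI_90min (adjusted p = 1.28e-07). Without MI_90min replicate 1 the count was 19.

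From 30 min to 8 h after larval grazing 25 genes were called (59.5%, beside 43.3% of all genes), 15 higher (21.5% of all genes) and 10 lower (21.7%) at Dm_8h. Of the 19 listed as lower after injury 13 were higher at Dm_8h and 6 did not pass, while of the 23 listed as higher 10 were lower, 2 were higher and 11 did not pass. The medians were 0.65 for the 19, -0.30 for the 23 and -0.01 over all genes. These directions and medians may likewise follow from the split. Tatro_004118-T1 had 721, 751 and 524 CPM at Dm_8h and 66.0, 87.8 and 121 CPM at Dm_30min, the largest rise among the 42 genes (log2 fold change 2.86 ± 0.29, adjusted p = 3.63e-10). Tatro_007806-T1 had 18.7, 18.8 and 22.4 CPM at Dm_8h and 8.45, 6 and 6.83 CPM at Dm_30min (log2 fold change 1.5 ± 0.21, adjusted p = 2.03e-07). Tatro_008005-T1 (-2.22 ± 0.25, adjusted p = 3.34e-09) and Tatro_010015-T1 (-1.57 ± 0.19, adjusted p = 1.22e-08) were lower. The injury and larval courses share no library. As a description, their log2 fold changes had a Pearson correlation of 0.887 over the 42 genes and of 0.816 over all 9193 genes, whose points share the depth and the composition of the same 12 libraries.

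**Figure D5:**
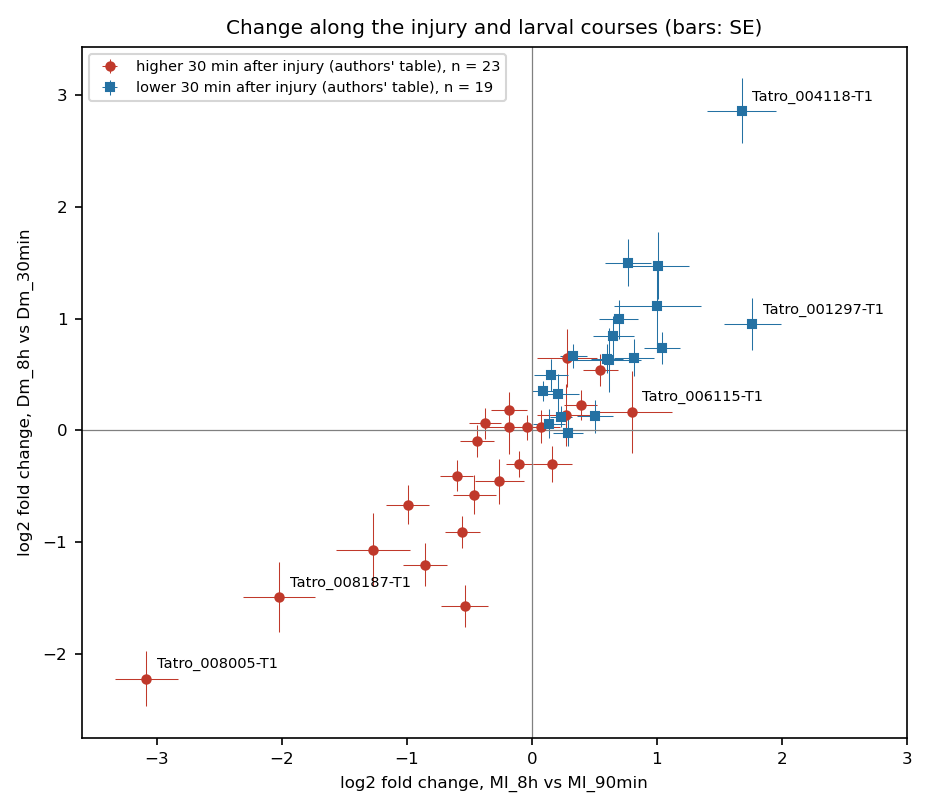
Log2 fold change of the larval course (Dm_8h vs Dm_30min) against that of the injury course (MI_8h vs MI_90min) for the 42 genes, circles for the 23 and squares for the 19 genes listed as higher and lower 30 min after injury, bars for standard errors. The squares lie in the upper right or at its edge and many circles in the lower left, with Tatro_008005-T1 at -3.08 and -2.22 and Tatro_004118-T1 at 1.68 and 2.86.

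In untreated mycelium 5 of the 42 genes were called between CT8 and CT0 (11.9%, beside 8.41% of all genes), 2 higher (5.09% of all genes) and 3 lower (3.32%) in CT8. Tatro_002522-T1 had 38.1, 40.8 and 38.8 CPM in CT8 and 52.6, 63.4 and 58.7 CPM in CT0 (log2 fold change -0.55 ± 0.14, adjusted p = 0.0119). Tatro_004398-T1 averaged 30.6 ± 3.5 CPM in CT8 and 50.5 ± 7.71 CPM in CT0 (adjusted p = 0.0112). Both calls were lost without CT0 replicate 3 and without CT8 replicate 1 (highest adjusted p = 0.0636 and 0.0923). In those fits edgeR called 0 of the 42, with 7 and 9 at an unadjusted p under 0.05, and without CT0 replicate 1, CT8 replicate 2 or CT8 replicate 3 it called 3, 3 and 2.

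The genes differ in how often they moved. Of the 42, 6 were called in at least 10 of the 22 comparisons tested (14.3%, beside 11.7% of all genes tested), and 3 in none (7.14%, beside 15.7%). Tatro_008005-T1 was called in 15, and its highest group mean was 51.9 times its lowest (509.9 CPM at MI_30min and 9.83 CPM in CT0). None of the authors' other deposited tables lists 16 of the 42 genes. The matching share over the other genes listed 30 min after injury is not given here, so this count has no reference. The authors' deposited table for larvae at 30 min lists 21 (50%, beside 23.3% of all genes counted). The authors' deposited table for injury at 90 min lists 16 (38.1%, beside 22.4%), and the authors' deposited table for O. folsomi at 30 min lists 2 (4.76%, beside 1.13%). All 42 were taken from a table of the same set, which may share its control libraries with these.

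Gene ids follow the annotation's numbering, and genes with adjoining ids were set beside the genes named here, as positions were not used. Over all comparisons in which a gene was named, the 2 ids on either side gave 292 tests, of which 71 were called in the direction of the named gene, 26 in the opposite one and 195 not. The same ids recur in several comparisons, with 56 of the tests around Tatro_008005-T1, so these are not separate genes. The share of all genes called ran from 0.207% at Of_4h vs CT8 to 45.7% at MI_8h vs MI_90min. The split has no single reference and was not tested. The examples below were picked after their values had been seen. Tatro_008185-T1, an extracellular membrane protein with a CFEM domain (a cysteine-rich domain of fungal surface proteins), stands 2 ids before Tatro_008187-T1. Both were lower at Dm_90min than at MI_90min, by -1.49 ± 0.23 (adjusted p = 4.41e-05) for Tatro_008185-T1 and -1.40 ± 0.29 for Tatro_008187-T1 on the log2 scale. Both were lower at MI_8h than at MI_90min, by -3.27 (adjusted p = 4.47e-13) and -2.02 (adjusted p = 3.47e-07). The ids on either side of Tatro_006936-T1 are a hydantoinase B/oxoprolinase gene, Tatro_006935-T1, and a major facilitator superfamily transporter gene, Tatro_006937-T1. At Dm_30min against CT0 the log2 fold change was -1.25 (adjusted p = 9.4e-08) for Tatro_006935-T1 and -0.74 (adjusted p = 0.000793) for Tatro_006937-T1, beside -1.27 for Tatro_006936-T1 itself. At MI_8h against MI_90min they stood at 0.84 (adjusted p = 3.09e-05) and 1.10 (adjusted p = 1.99e-06), beside 1.04 for Tatro_006936-T1. At Dm_8h against MI_8h, where Tatro_006936-T1 was called lower, they stood at -0.20 (adjusted p = 0.636) and -0.09 (adjusted p = 0.884). Tatro_004120-T1, a gene with no product text 2 ids after Tatro_004118-T1, was higher than in CT8 by 4.03 on the log2 scale at MI_4h (adjusted p = 8.15e-12) and by 4.41 at Dm_8h (adjusted p = 1.15e-13). Its value at Of_4h was -0.50 (adjusted p = 0.815), where Tatro_004118-T1 fell. The ids directly before and after Tatro_004118-T1 did not pass at MI_4h, with -0.01 ± 0.23 for Tatro_004117-T1 (adjusted p = 0.99) and -0.12 ± 0.22 for Tatro_004119-T1 (adjusted p = 0.737). Tatro_008004-T1, the id before Tatro_008005-T1, did not pass the test at MI_90min against CT0 (log2 fold change -0.03 ± 0.11, adjusted p = 0.829). The id after it, Tatro_008006-T1, a zinc cluster gene, was higher at Dm_30min than in CT0 (0.59 ± 0.21, adjusted p = 0.0231) and lower at Dm_8h than at Dm_30min (-1.01 ± 0.22, adjusted p = 0.000266). Tatro_008003-T1, with no product text and 2 ids before, was higher than in CT8 at Dm_4h (1.66 ± 0.33, adjusted p = 0.000354) and at Dm_8h (1.45 ± 0.35, adjusted p = 0.00183). In the courses where Tatro_008005-T1 fell, Tatro_008003-T1 rose. It rose by 1.51 at MI_8h against MI_90min (adjusted p = 0.000157) and by 1.01 at Dm_8h against Dm_30min (adjusted p = 0.0113). Tatro_008004-T1 rose there too, by 0.33 (adjusted p = 0.0106) and 0.32 (adjusted p = 0.0147). Of the 56 tests around Tatro_008005-T1, 9 were called in its direction, 7 in the opposite one and 40 not.

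Other regulators of the same deposited table give the surroundings, all of them also chosen there on the injury libraries. Of 24 zinc cluster genes, regulators that often carry the domain described here as well, 4 rose and 9 fell at Dm_30min against CT0 (median log2 fold change -0.25), where 19.1% of all genes tested rose and 20.4% fell. Of 20 C2H2 zinc finger genes, which bind DNA with another kind of zinc fold, 9 rose and the other 11 did not pass the test (median 0.43). Between MI_8h and MI_90min 11 zinc cluster genes were higher and 4 lower at MI_8h, while 3 C2H2 genes were higher and 10 lower, beside 22.6% of all genes higher and 23.1% lower. At Dm_30min 1 of 6 basic leucine zipper genes rose and 1 fell, and of 23 other DNA-binding regulators 7 rose and 6 fell. How many genes of each list were chosen as higher or as lower after injury is not given here. The directions of the lists may follow from that make-up, and a difference between families was not tested. The C2H2 list takes in an aprataxin, a DNA repair protein, through its text. A hydrophobin, a surface protein of aerial hyphae and spores, and 2 velvet factors, regulators of development, served as a list for aerial growth. Their summed level ran between 266 and 332 CPM at MI_8h and between 105 and 121 CPM at MI_90min, and between 365 and 417 CPM at Dm_8h and between 121 and 128 CPM at Dm_30min. It ran from 212 to 222 CPM in CT8 and from 161 to 179 CPM in CT0. Its part in the late rises among the 42 genes was not tested.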

How the data were processed

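RNA-seq of 42 libraries in 14 groups was analysed. The authors deposited whole-number counts per gene model, made with HISAT2 2.1.0 and HTSeq 0.14.1 after FastQC 0.11.6, per the submitters' processing notes. The order and settings of these steps, the genome build and the annotation were not given in the sources used here. The labels' protocols name a stranded total RNA kit. The 12018 models were reduced to 11786 genes, since the 204 genes with several models had identical counts in each of them. The authors' tables, as deposited, give log2 fold changes and FDR values without naming the control; the table behind the gene selection holds 3398 ids with FDR up to 0.00499924, of which 2865 carry a product text. The members and lists were chosen with earlier results of these data known.

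Counts were fitted in edgeR 4.0.16 (R 4.3.3, limma 3.58.1) with TMM factors, edgeR's automatic filter on low counts and 1 coefficient per group over all 42 libraries, so that all groups share 1 estimate of the spread, and 22 comparisons were tested with Benjamini-Hochberg adjustment over 9193 genes at 0.05. The standard error of a log2 fold change is its size divided by the root of the F statistic. The code was tested on simulated data. Genes were named in each comparison as the 3 largest rises and 3 largest falls among called genes whose libraries do not overlap and whose higher group averages 5 CPM or more, and for the injury contrast at 30 min as the 5 highest and 5 lowest in the authors' deposited table. Values of other genes, such as Tatro_006317-T1, Tatro_001744-T1 and Tatro_006599-T1, of Tatro_002522-T1 after injury and larvae, of Tatro_008005-T1 where it missed the threshold and of Tatro_006115-T1 at MI_90min and Dm_30min, were picked after they had been seen. For named genes the 2 ids on either side were described. Alternatives were RLE size factors, library totals, no filter on low counts, a replicate block, the mean of both controls, DESeq2 1.42.0, each library left out in turn and, added after seeing the data, the 4 shallowest libraries left out together. No id matched the RefSeq table, so no sequence is shown. Depths are given in the report; intervals and standard errors cover the spread between libraries only.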

Additional observations from a re-analysis of the deposited data

Results flagged for a closer look

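Of the 42 genes, 4 had a gap between larvae and injury that differed between 8 h and 90 min, by the interaction test in edgeR. The log2 difference of differences was 2.0954 for Tatro_008005-T1, whose gap was 0.95 at 8 h and -1.15 at 90 min. The gap at 8 h alone did not pass the edgeR test (adjusted p = 0.0731), and the Dm_8h and MI_8h libraries overlapped. The log2 difference of differences was 1.6823 for Tatro_008187-T1 and 0.926614 for Tatro_001744-T1, both of which lost their call in some fits that left out 1 library. It was -0.794593 for Tatro_007364-T1. For Tatro_001744-T1, Dm_90min replicate 3 had 10.2 CPM, beside 38 and 39.7 CPM in the other libraries of that group, and the call held without that replicate. The same call was lost in edgeR when the 4 shallowest libraries, that replicate among them, were left out together (adjusted p = 0.0578).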

How the results depend on the processing

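No called gene among the 42 changed sign under any alternative. Counts of called genes moved by over 1.5 times in these cases, whose cause was not tested. With library totals 6 were called at Dm_8h vs CT8, 1 at Dm_4h vs MI_4h and 3 at CT8 vs CT0; these totals shifted the median of all genes by up to -0.19 (log2). Without the filter on low counts 1 was called at Dm_4h vs MI_4h and 7 at Dm_4h vs Of_4h. Against the mean of both controls edgeR called 0 at Of_90min (2 at an unadjusted p under 0.05; DESeq2 against CT0 called 1) and 3 at Of_4h. DESeq2 called 2 at Dm_8h vs MI_8h. Without the 4 shallowest libraries edgeR called 4 at Dm_4h vs MI_4h, 0 at Dm_8h vs MI_8h (4 at an unadjusted p under 0.05) and 2 in the interaction. RLE size factors moved no count.

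The replicate numbers did not pair the libraries: deviations of same-numbered libraries had a mean correlation of 0.0011 over 273 pairs, 20 of them over 0.1. With the replicate block 1 gene was called at Dm_4h vs MI_4h and no other count moved by over 1.5 times.

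Leaving out 1 library at a time gave 14 to 20 called genes at MI_90min vs CT0, 8 to 14 at MI_4h vs CT8, 2 to 8 at MI_8h vs CT8, 21 to 25 at Dm_30min vs CT0, 10 to 13 at Dm_90min vs CT0, 8 to 9 at Dm_4h vs CT8 and 4 to 13 at Dm_8h vs CT8. It gave 0 to 3 at Of_30min vs CT0, 1 at Of_90min vs CT0, 0 to 1 at Of_4h vs CT8 and 0 at Of_8h vs CT8. Between treatments it gave 4 to 11 at Dm_90min vs MI_90min, 0 to 2 at Dm_4h vs MI_4h, 0 to 2 at Dm_8h vs MI_8h, 21 to 25 at Dm_30min vs Of_30min, 10 to 16 at Dm_90min vs Of_90min, 6 to 8 at Dm_4h vs Of_4h and 4 to 10 at Dm_8h vs Of_8h. It gave 19 to 26 at Dm_8h vs Dm_30min, 19 to 26 at MI_8h vs MI_90min, 0 to 4 at CT8 vs CT0 and 2 to 5 in the interaction. Of 96 pairs of a named gene and a comparison, 64 kept their call in every such fit, and 62 kept it in these and in every other alternative run.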
